A study of Mus musculus with 32 samples.

Results

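The 10 genes described here encode the chains of the alpha-beta T-cell receptor and proteins that thymocytes use at later steps of the same lineage: the constant genes Trac, Trbc1 and Trbc2, the variable segment Trbv13-2, the pre-T alpha gene Ptcra, the co-receptor genes Cd4, Cd8a and Cd8b1, and Themis and Satb1. They were chosen by name as rows of the deposited expression tables, with no measured value in the rule, and make up 10 of 26244 genes in the E19.5 table and 9 of 19404 in the E15.5 table, where Cd8a was not analysed. RNA-seq was carried out on cells sorted from the embryonic thymus of mice whose strain is given as 5x polychromILC, with no further allele or agent named. The DN1 cells, the earliest thymocyte stage that by name lacks CD4 and CD8, had been divided by BCL11b, a transcription factor switched on at T-lineage commitment, and ID2, an inhibitor of E-protein transcription factors that is high in innate lymphoid cells (ILCs). At each stage the gates were DN2 (the stage after DN1 by name), BCL11b+ID2+, BCL11b+ID2-, BCL11b-ID2+ and BCL11b-ID2-, and E19.5 had a further gate low for both, BCL11blowID2low. Every gate had 3 libraries except DN2 at E15.5 with 2, for a total of 18 libraries at E19.5 and 14 at E15.5. Separate animals are named for no gate, so a p-value here reflects only how far libraries of a gate differ, which may be technical.

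In the alpha-beta lineage the beta chain gene is assembled first by the RAG recombinase, which joins a Trbv, a Trbd and a Trbj segment, and the assembled gene is then spliced to Trbc1 or Trbc2. The beta chain pairs with pre-T alpha, the product of Ptcra, and is displayed with the CD3 chains as the pre-T-cell receptor. Cells that pass this checkpoint switch on Cd4, Cd8a and Cd8b1 and assemble the alpha chain gene from Trav and Traj segments spliced to Trac. THEMIS tunes receptor signalling during selection, and SATB1 organises chromatin in thymocytes. Constant genes can also be transcribed before assembly, so their reads alone do not show a complete receptor chain.

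Values are read counts scaled by the authors for library size, 1 table for each stage, and the scales of the stages were set separately, so no value was tested between E19.5 and E15.5. Recovered whole reads came to between 2599470 and 9498133 per library at E19.5 and between 12030749 and 20709387 at E15.5, of which mitochondrial genes took 29.9% to 60.2% at E19.5 and 52.8% to 81.6% at E15.5. The pan-leukocyte and T-lineage markers Ptprc and Thy1 were read in every gate, with Thy1 lowest in BCL11b-ID2- at both stages. Bcl11b, the gene behind the first gate, was 454 to 1126 in DN2, 376 to 491 in BCL11blowID2low, at least 409 in BCL11b+ libraries and at most 39.2 in BCL11b- libraries at E19.5, where Id2 was 159 to 183 in BCL11blowID2low, at least 961 in ID2+ and at most 32.1 in ID2- libraries. At E15.5 the ranges of the + and - gates were apart as well, except that 1 ID2- library had more Id2 (126) than the lowest ID2+ library (85.0). Among markers of other cells at E19.5, the summed NK and ILC1 list (6 genes) ran from 13262 to 14338 in BCL11b-ID2+ libraries and from 1387 to 1829 in BCL11blowID2low libraries, against at most 1301 in the other gates, and the ILC2 list (4 genes) was highest in BCL11b+ID2+, at 5345 to 5791. The lymphoid tissue inducer and ILC3 list (4 genes) was highest in BCL11blowID2low, at 2056 to 3081. The macrophage and dendritic list (10 genes) had its highest mean in BCL11b-ID2+, at 1019.6 to 1463, which overlapped the 954 to 1060 of BCL11b-ID2-. Of those 10 genes, 1 passed as higher and 3 as lower in BCL11b-ID2+ against BCL11b-ID2-. The B-lineage (4 genes), erythroid (4 genes) and epithelial and stromal (5 genes) lists had their highest means in BCL11b-ID2-, where they ran at 143 to 182, 179 to 360.1 and 620.4 to 883, apart from 1 BCL11blowID2low library in which the B-lineage sum reached 239.7. At E15.5 the NK and ILC1 sum was 9729 to 12179 in BCL11b-ID2+ and the ILC2 sum 7541 to 10782 in BCL11b+ID2+. The part of these cells in the member values was not tested.

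The sequences below show where members can and cannot be told apart by short reads. Trbc1 (chr6:41538218-41539881, plus strand, GRCm38) and Trbc2 (chr6:41546730-41548352, plus strand) lie next to each other on chromosome 6, and their first coding exons, 375 bases each, were 99.73% identical with 1 difference and a run of 259 identical bases. The 120 bases that end at that difference are printed, plus strand, with the differing base in capitals:
Trbc1: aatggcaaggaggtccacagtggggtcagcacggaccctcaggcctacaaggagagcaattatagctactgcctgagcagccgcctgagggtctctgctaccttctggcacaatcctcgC
Trbc2: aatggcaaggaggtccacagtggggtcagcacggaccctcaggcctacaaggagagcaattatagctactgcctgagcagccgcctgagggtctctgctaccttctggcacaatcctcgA
Reads inside the identical run fit both genes, and the authors' way of counting such reads is not given in the labels or notes, so the split between Trbc1 and Trbc2 is uncertain and their sum was tested as well.

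Trbv13-2 (chr6:41121396-41121832, plus strand) encodes the Vbeta8.2 segment of the beta chain, and its second exon, 294 bases, was 91.84% identical to that of Trbv13-3 with 24 differences and 88.78% identical to that of Trbv13-1 with 33. The 90-base stretches below were chosen where Trbv13-2 had the most bases that differ from either relative. Capitals mark those bases in Trbv13-2, and in each relative the bases that differ from Trbv13-2:
Trbv13-2: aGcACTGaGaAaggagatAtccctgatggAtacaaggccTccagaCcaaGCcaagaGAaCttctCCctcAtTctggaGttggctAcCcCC
Trbv13-3: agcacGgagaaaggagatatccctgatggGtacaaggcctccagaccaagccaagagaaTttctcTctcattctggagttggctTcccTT
Trbv13-1: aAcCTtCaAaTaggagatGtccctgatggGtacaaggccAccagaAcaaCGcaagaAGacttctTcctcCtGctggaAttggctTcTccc
In these stretches 7 bases of Trbv13-3 and 20 of Trbv13-1 differed from Trbv13-2, and other stretches of the exon were not counted.

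Ptcra (chr17:46755663-46763712, minus strand) is printed with the 250 bases before its transcription start (chr17:46763713-46763962, minus strand, RefSeq, GRCm38.p6), because E proteins, the factors that ID2 blocks, are known to act on this gene in mouse thymocytes. Capitals mark matches to CAGCTG, one form of the E-box CANNTG that E proteins bind:
Ptcra: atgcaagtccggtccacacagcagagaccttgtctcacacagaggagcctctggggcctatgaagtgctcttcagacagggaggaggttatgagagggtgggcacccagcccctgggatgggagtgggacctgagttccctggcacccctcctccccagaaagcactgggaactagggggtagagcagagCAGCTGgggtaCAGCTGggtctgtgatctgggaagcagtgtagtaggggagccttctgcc
The matches begin 60 and 49 bases before the start. CAGCTG reads the same on both strands. Over both strands, 66.2% of 32851 RefSeq promoter windows of 250 bases held CANNTG, 13% held CAGCTG, which is itself a CANNTG, and 1.3% held at least as many CAGCTG matches as Ptcra, whereas 31.8% held at least as many CANNTG. The Cd8a window and 1 of the 2 Themis windows also held 2 CANNTG each, neither of them CAGCTG, and 1 of the 5 Satb1 windows held 2, of which 1 was CAGCTG. A match describes letters, not binding. Promoter entries were matched for 4 of the 10 members.

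At E19.5 the mean of Trac, Trbc1, Trbc2, Cd8a, Cd8b1 and Satb1 was highest in the BCL11b+ID2- gate. DN2 had the highest mean of Trbv13-2, Ptcra and Themis and the lowest of Trac, Cd4, Cd8a and Cd8b1. Of the 10 members, all of which passed the filter (3 or more libraries with a value of 10 or more), 6 fell in BCL11b+ID2+ against BCL11b+ID2- (Trac, Trbc1, Trbc2, Trbv13-2, Cd8a and Satb1), where 8.73% of the 13840 genes tested passed limma's threshold of adjusted p under 0.05. Among BCL11b- cells, 3 fell in the ID2+ gate (Trbc1, Trbc2 and Trbv13-2), with 15.9% of all genes passing. BCL11b+ID2- against BCL11b-ID2- gave 7 members that rose (Trac, Trbc1, Trbc2, Cd8a, Cd8b1, Themis and Satb1), with 14.9% of all genes, and BCL11b+ID2+ against BCL11b-ID2+ gave 1, Themis, with 6.03%.

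In DN2 against BCL11b+ID2-, Ptcra rose and 6 members fell (Trac, Trbc1, Cd4, Cd8a, Cd8b1 and Satb1), with 16.2% of all genes passing. DN2 against BCL11b-ID2- gave 2 members that rose (Ptcra and Themis) and 1 that fell (Cd4), with 2.98%. The BCL11blowID2low gate had 3 members that rose against BCL11b-ID2- (Trac, Cd8a and Themis), with 14%, 4 that fell against BCL11b+ID2- (Trbc1, Trbc2, Trbv13-2 and Satb1), with 6.91%, and 2 that rose against BCL11b+ID2+ (Trbc1 and Trbc2), with 4.43%. The ID2 difference itself differed between BCL11b+ and BCL11b- cells for 1 member, Cd8a, with 9.28% of all genes passing that interaction test. These comparisons reuse the same libraries and are not independent of each other.

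**Figure D1:**
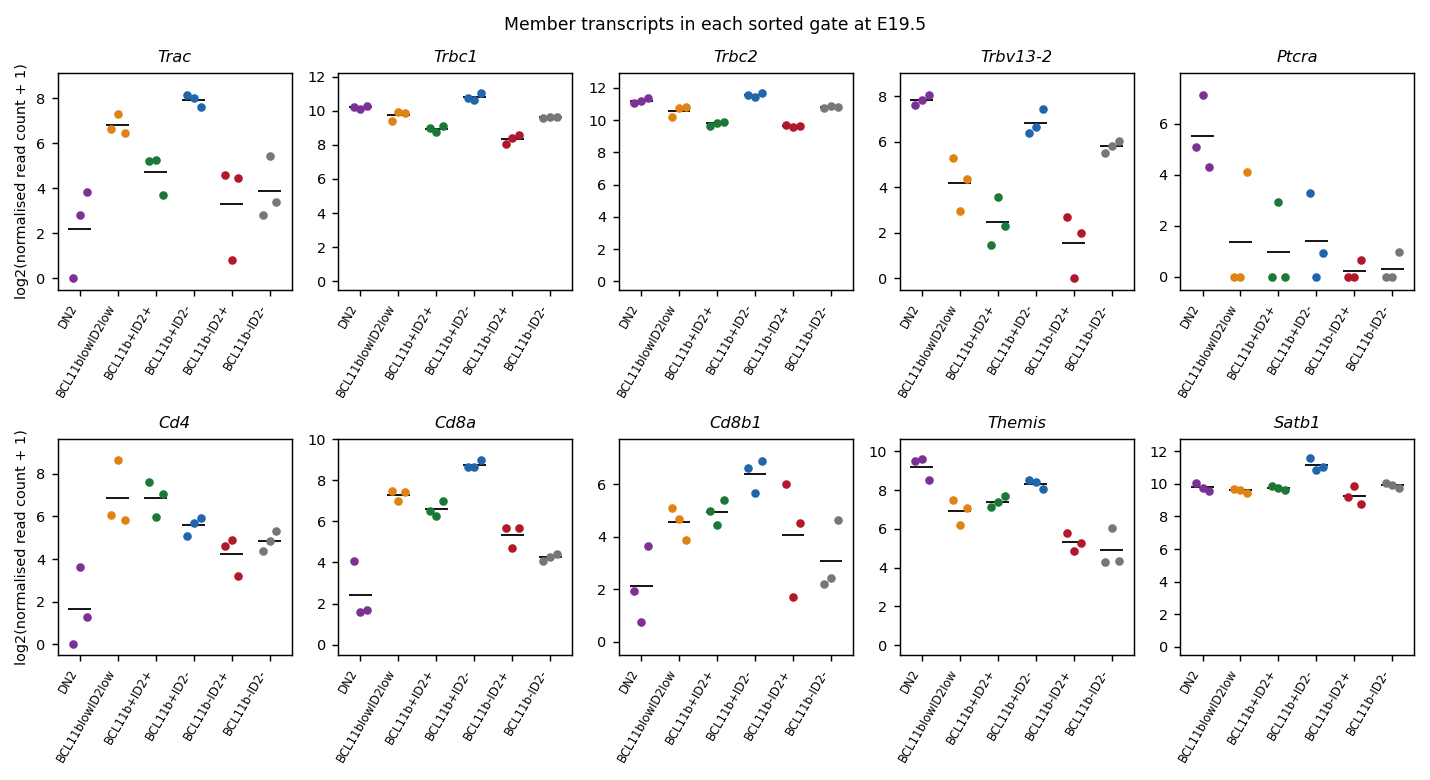
Normalised read counts, as log2(value + 1), of the 10 members at E19.5, 1 panel a gene, with a point for each library and a line at the mean of each gate's 3 log values. The BCL11b+ID2- libraries were the highest for Trac, Trbc1, Trbc2, Cd8a and Satb1, and the DN2 libraries for Trbv13-2 and Ptcra.

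**Figure D2:**
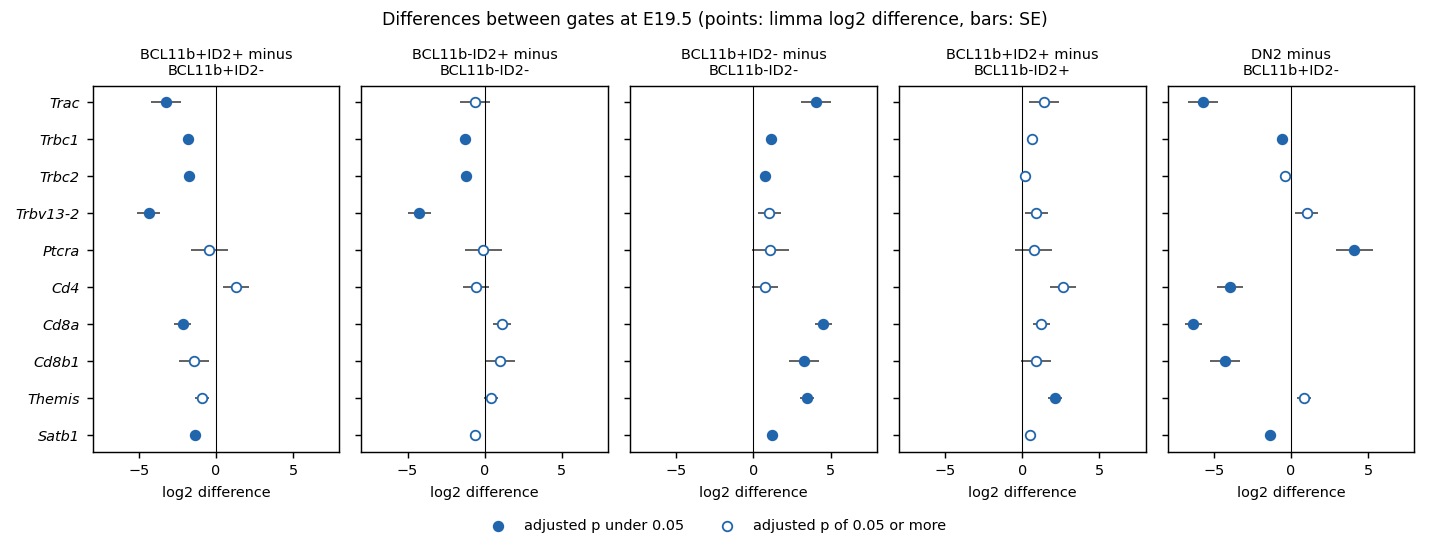
log2 differences of the members between gates at E19.5, with bars for the SE of the limma fit and filled points for adjusted p under 0.05. The largest called differences of the members in these 5 comparisons were those of Cd8a (-6.33) and Trac (-5.73) in DN2 against BCL11b+ID2-.

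Levels of different members were set side by side only per kilobase of exon. In BCL11b+ID2- libraries at E19.5 the mean normalised read count per kilobase was 4386 for Trbc2 and 2393 for Trbc1, against 264 for Trac, 120.2 for Cd8a and 2.49 for Ptcra. In DN2 the same quantity was 3416 for Trbc2 and 675 for Trbv13-2, against 6.80 for Trac and 48.8 for Ptcra. Per kilobase, Trbc2 thus stood above Trac in both gates, and Trac above Ptcra only in BCL11b+ID2-.

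Trac (chr14:54220521-54224206, plus strand) supplies the constant region of the alpha chain. Its normalised read counts at E19.5 were 0, 5.99 and 13.1 in DN2, 99.6, 154 and 85.6 in BCL11blowID2low, 35.6, 37.6 and 11.9 in BCL11b+ID2+, 285, 260.3 and 196 in BCL11b+ID2-, 22.8, 0.768 and 21.3 in BCL11b-ID2+, with 6.10, 42.7 and 9.60 in BCL11b-ID2-. Every BCL11b+ID2- library stood above every BCL11blowID2low library, and these above all others, while the remaining 4 gates overlapped their neighbours. Trac fell in BCL11b+ID2+ against BCL11b+ID2- (log2 difference -3.22 ± 0.97, limma adjusted p = 0.0396; means 8.70-fold lower), and that call was lost on leaving out any 1 of the 6 libraries, with adjusted p between 0.0631 and 0.171, and with no filter on low values (0.0589). It rose in BCL11b+ID2- against BCL11b-ID2- (log2 difference 4.04 ± 0.97, limma adjusted p = 0.00557) and fell in DN2 against BCL11b+ID2- (log2 difference -5.73 ± 0.97, limma adjusted p = 0.000213). In BCL11blowID2low against BCL11b-ID2- it rose narrowly (log2 difference 2.89 ± 0.97, limma adjusted p = 0.0492), and the call was lost without any BCL11blowID2low library or BCL11b-ID2- replicate 1 or 4, with adjusted p up to 0.191, with no filter on low values (0.0742), in edgeR (0.0548) and with the replicate number as a block (0.0586). In bulk libraries, fewer cells with a transcript and less transcript per cell cannot be told apart.

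The gates with Trac also carried the receptor genes of the other T lineage. Trdc, the delta constant gene, which lies in the same locus as Trac, averaged 465 ± 79.5 in DN2, 2509.8 ± 512 in BCL11blowID2low, 337 ± 65.3 in BCL11b+ID2+, 2971 ± 339 in BCL11b+ID2-, 64.4 ± 25.2 in BCL11b-ID2+, with 54.4 ± 10.02 in BCL11b-ID2- (SD, n = 3 each). The summed gamma and delta constant genes (4 genes, none at 0 in any gate) ran from 4756 to 6611 in DN2, 5851 to 7623 in BCL11blowID2low, 2366 to 2484 in BCL11b+ID2+, 6919.6 to 8071 in BCL11b+ID2-, 786 to 897 in BCL11b-ID2+, with 455 to 571 in BCL11b-ID2-. The gates highest in Trdc, BCL11b+ID2- and BCL11blowID2low, were the ones highest in Trac, whereas DN2 came next in Trdc and last in Trac. The part of gamma-delta cells in the member values was not tested.

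Trbc1 and Trbc2, the constant genes of the beta chain, were read in all gates and differed between gates by less than Trac. Trbc2 had 2127, 2329 and 2634 normalised reads in DN2, 1192, 1702 and 1781 in BCL11blowID2low, 790.5, 924 and 962 in BCL11b+ID2+, 3034, 2802 and 3269.8 in BCL11b+ID2-, 816, 747 and 804 in BCL11b-ID2+, with 1749, 1856 and 1809 in BCL11b-ID2-. The order of the means was BCL11b+ID2-, DN2, BCL11b-ID2-, BCL11blowID2low, BCL11b+ID2+ and BCL11b-ID2+, and overlaps between neighbours were those of BCL11b-ID2- with BCL11blowID2low and of BCL11b+ID2+ with BCL11b-ID2+. Trbc1 had 1224, 1105 and 1254 in DN2, 684, 986 and 940.3 in BCL11blowID2low, 519.9, 428 and 559.9 in BCL11b+ID2+, 1706, 1574 and 2097 in BCL11b+ID2-, 268, 334 and 380.3 in BCL11b-ID2+, with 781, 784 and 813 in BCL11b-ID2-. For Trbc1 the BCL11blowID2low and BCL11b-ID2- libraries overlapped, and all other neighbours in the order were apart.

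Both beta constant genes fell in the ID2+ gate at either BCL11b state. In BCL11b+ID2+ against BCL11b+ID2-, Trbc1 was 3.57-fold lower (log2 difference -1.83 ± 0.19, limma adjusted p = 9.47e-07) and Trbc2 3.40-fold lower (log2 difference -1.77 ± 0.16, limma adjusted p = 1.05e-07). In BCL11b-ID2+ against BCL11b-ID2-, Trbc1 was 2.42-fold lower (log2 difference -1.29 ± 0.19, limma adjusted p = 4.08e-05) and Trbc2 2.29-fold lower (log2 difference -1.19 ± 0.16, limma adjusted p = 9.71e-06). Both rose in BCL11b+ID2- against BCL11b-ID2-, Trbc1 by a log2 difference of 1.17 ± 0.19 (limma adjusted p = 0.000161) and Trbc2 by 0.75 ± 0.16 (limma adjusted p = 0.00211). The BCL11blowID2low gate lay between: both genes fell against BCL11b+ID2- (Trbc1 -1.05 ± 0.19, Trbc2 -0.98 ± 0.16; limma adjusted p = 0.0017 and 0.000523) and rose against BCL11b+ID2+ (Trbc1 0.78 ± 0.19, Trbc2 0.79 ± 0.16; limma adjusted p = 0.0192 and 0.00417), the last pair being lost when only those groups entered the fit. That rise of Trbc1 was also lost without BCL11b+ID2+ replicate 2 or BCL11blowID2low replicate 2 or 4, with adjusted p up to 0.114. DN2 against BCL11b+ID2- gave a called fall of Trbc1 (log2 difference -0.58 ± 0.19, limma adjusted p = 0.0444) that was lost without any DN2 library or BCL11b+ID2- replicate 1 or 4 (adjusted p up to 0.162), with no filter, with TMM scaling, in edgeR and with only those groups in the fit, and a value of -0.36 ± 0.16 for Trbc2 (limma adjusted p = 0.132). With Trbc1 and Trbc2 summed and tested as 1 gene, the sum passed in every comparison that holds these 11 calls. Each comparison had 1 such test, which stands for both genes. DN2 against BCL11b+ID2- was nearest the threshold (limma adjusted p = 0.0439).

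Trbv13-2 had the most normalised reads of the alpha and beta segments at both stages by mean over libraries, with segment length not taken into account. Of the members it had the largest log2 difference between the ID2+ and ID2- gates of the BCL11b- cells. At E19.5 it had 196, 225 and 267 normalised reads in DN2, 38.2, 6.71 and 19.4 in BCL11blowID2low, 1.78, 11.1 and 3.96 in BCL11b+ID2+, 81.6, 101 and 173 in BCL11b+ID2-, 5.39, 0 and 2.95 in BCL11b-ID2+, with 45.1, 55.7 and 64.3 in BCL11b-ID2-. DN2, BCL11b+ID2- and BCL11b-ID2- formed separate steps downward, and the other 3 gates overlapped their neighbours below them. It fell in BCL11b+ID2+ against BCL11b+ID2- (log2 difference -4.37 ± 0.75, limma adjusted p = 0.000406; means 21.2-fold lower) and in BCL11b-ID2+ against BCL11b-ID2- (log2 difference -4.24 ± 0.75, limma adjusted p = 0.000287; means 19.8-fold lower). The segment also fell in BCL11blowID2low against BCL11b+ID2- (log2 difference -2.63 ± 0.75, limma adjusted p = 0.0349), a call lost on leaving out any of the BCL11b+ID2- libraries or BCL11blowID2low replicate 2 or 4, with adjusted p up to 0.153, with no filter on low values (0.0588) and with only those groups in the fit (0.0822). DN2 stood above BCL11b+ID2- in every library, with a log2 difference of 1.01 ± 0.75 that did not pass (limma adjusted p = 0.409).

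Other receptor segments were read sparsely. Of 114 Trav, Traj, Trbv, Trbd and Trbj rows in the E19.5 table, 24 passed the filter, Trbv13-2 among them: 9 of 26 Trbv, 8 of 14 Trbj, 3 of 19 Trav, 2 of 6 Trav that also serve delta, 1 of 47 Traj and 1 of 2 Trbd. Summed Trbv segments averaged 344 ± 37.9 in DN2, 115 ± 35.1 in BCL11blowID2low, 41.4 ± 5.06 in BCL11b+ID2+, 494 ± 76.9 in BCL11b+ID2-, 21.6 ± 9.57 in BCL11b-ID2+, with 100.4 ± 15.3 in BCL11b-ID2- (SD, n = 3 each). Summed Traj segments, used by the alpha chain, ran from 0 to 11.3 in DN2, from 34.7 to 45.8 in BCL11blowID2low, from 5.34 to 28.4 in BCL11b+ID2+, from 89.5 to 252 in BCL11b+ID2-, from 0.768 to 8.98 in BCL11b-ID2+, with from 0 to 3.84 in BCL11b-ID2-. In BCL11b+ID2- libraries 38 of the 47 Traj rows had reads, against 5 in DN2. DN2 thus had the highest summed Trbv after BCL11b+ID2-, whereas its summed Traj exceeded that of BCL11b-ID2- alone by mean. Assembled and unassembled segments cannot be told apart in these counts.

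Of the 24 segments tested, 10 fell and none rose in BCL11b+ID2+ against BCL11b+ID2-, and 11 rose and none fell in BCL11b+ID2- against BCL11b-ID2-. A sparsely read segment could pass the filter through 1 gate where it was high, as Traj segments were in BCL11b+ID2-, so the filter partly sets the direction of these counts and they support nothing. DN2 against BCL11b+ID2- gave 8 that fell and 1 that rose, BCL11blowID2low against BCL11b+ID2- gave 5 that fell, BCL11b-ID2+ against BCL11b-ID2- gave 2 that fell, and BCL11b+ID2+ against BCL11b-ID2+ gave none. After Trbv13-2 the segments with the highest mean, again without regard to length, were Trbj2-1, Trbj1-1, Trbv12-2 and Trbj2-7. Trbj1-1 averaged 55.5 ± 18.4 in DN2 and 7.21 ± 3.34 in BCL11b+ID2-, whereas Trbj2-7 averaged 17.9 ± 9.07 in DN2 and 52.2 ± 21.0 in BCL11b+ID2- (SD, n = 3 each), so single J segments were not ordered alike across gates.

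**Figure D3:**
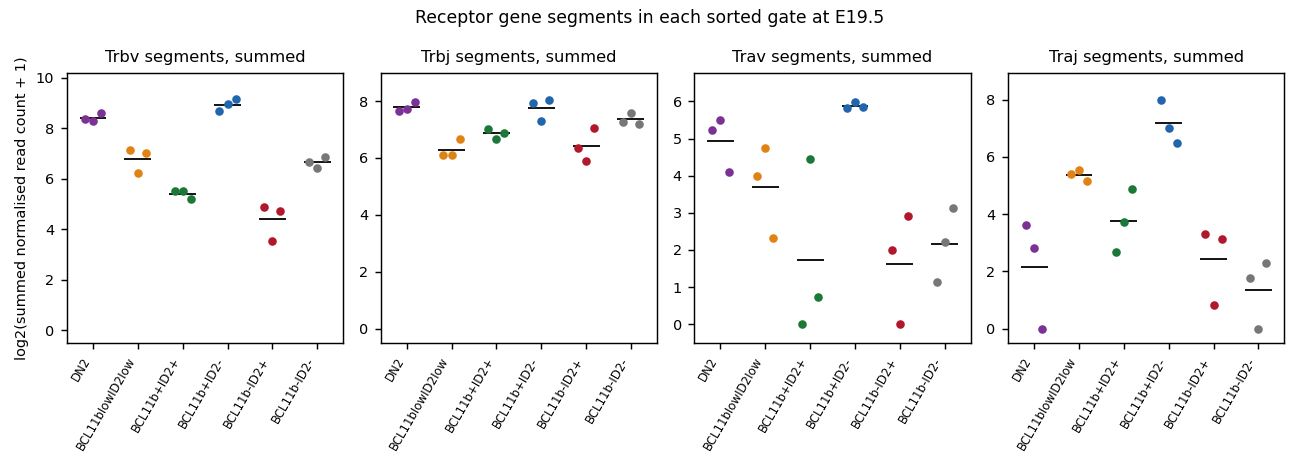
Summed normalised read counts of the Trbv, Trbj, Trav and Traj segments at E19.5, as log2(value + 1), with a point for each library and a line at each gate's mean of the log values. DN2 came after BCL11b+ID2- for Trbv and was above BCL11b-ID2- alone by mean for Traj, where the DN2 libraries ran from 0 to 11.3 and the BCL11b+ID2- libraries from 89.5 to 252.

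Ptcra, the pre-T alpha chain, was highest in DN2 at E19.5. Its normalised read counts were 32.5, 137 and 18.9 in DN2, 0, 0 and 16.1 in BCL11blowID2low, 0, 6.63 and 0 in BCL11b+ID2+, 8.68, 0 and 0.922 in BCL11b+ID2-, 0, 0 and 0.591 in BCL11b-ID2+, with 0, 0 and 0.960 in BCL11b-ID2-. Each DN2 library stood above every library of the other gates, which overlapped one another and rested on few reads (254 in DN2 over 3 libraries, 6 in BCL11b+ID2- and 1 in BCL11b-ID2-). Ptcra rose in DN2 against BCL11b+ID2- (log2 difference 4.09 ± 1.195, limma adjusted p = 0.0208; means 19.6-fold higher) and against BCL11b-ID2- (log2 difference 5.17 ± 1.195, limma adjusted p = 0.0149). With 1 read in BCL11b-ID2-, the ratio of means in the second comparison was 196 with a 95% counting interval of 34.8 to 7759, which covers counting error only. DN2 replicate 2 had the highest value, and without it the adjusted p was 0.112 and 0.102. The first call was also lost in edgeR and DESeq2 (0.0904 and 0.0752) and without BCL11b+ID2- replicate 2 or 4 (0.0967 and 0.0597), and the second in edgeR (0.0687) and without BCL11b-ID2- replicate 1 or 2. The DN1 gates had no called difference in Ptcra from one another.

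CD8 and CD4 are co-receptors that bind class I and class II MHC, and DN cells lack both proteins by name. Cd8a (chr6:71373427-71379173, plus strand) had 15.55, 1.998 and 2.18 normalised reads in DN2, 174, 126 and 170.3 in BCL11blowID2low, 90.8, 76.3 and 127 in BCL11b+ID2+, 394, 403 and 515 in BCL11b+ID2-, 49.7, 25.3 and 50.8 in BCL11b-ID2+, with 15.9, 18.1 and 20.2 in BCL11b-ID2-. The libraries of the 6 gates stood in separate ranges except those of BCL11blowID2low and BCL11b+ID2+. It fell in BCL11b+ID2+ against BCL11b+ID2- (log2 difference -2.17 ± 0.56, limma adjusted p = 0.0135; means 4.47-fold lower), although that call was lost without BCL11b+ID2+ replicate 2 (0.0621) or BCL11b+ID2- replicate 4 (0.0581). In BCL11b-ID2+ against BCL11b-ID2- the value was 1.11 ± 0.56 and did not pass (limma adjusted p = 0.198), and the difference of these ID2 effects, -3.28 ± 0.79, passed (limma adjusted p = 0.00931). Cd8a rose 24.2-fold in BCL11b+ID2- against BCL11b-ID2- (log2 difference 4.52 ± 0.56, limma adjusted p = 3.85e-06), rose in BCL11blowID2low against BCL11b-ID2- (log2 difference 3.04 ± 0.56, limma adjusted p = 0.000441) and was 66.5-fold lower in DN2 than in BCL11b+ID2- (log2 difference -6.33 ± 0.56, limma adjusted p = 2.61e-08).

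Cd8b1 (chr6:71322788-71337494, plus strand) encodes the partner chain of CD8 beside Cd8a. It had 2.83, 0.666 and 11.6 normalised reads in DN2, 33.2, 24.6 and 13.7 in BCL11blowID2low, 30.3, 21.0 and 41.5 in BCL11b+ID2+, 97.2, 49.3 and 118 in BCL11b+ID2-, 62.9, 2.303 and 21.8 in BCL11b-ID2+, with 3.66, 4.34 and 24.0 in BCL11b-ID2-. BCL11b+ID2- stood above the BCL11b+ID2+ libraries, next in the order of means, and overlapped 1 BCL11b-ID2+ library, and the gates below it overlapped their neighbours. Cd8b1 rose in BCL11b+ID2- against BCL11b-ID2- (log2 difference 3.29 ± 0.97, limma adjusted p = 0.0218), a call lost without BCL11b+ID2- replicate 1 or 4 or BCL11b-ID2- replicate 1 or 2 (adjusted p 0.0716 to 0.0922) and in edgeR (0.056), and it fell in DN2 against BCL11b+ID2- (log2 difference -4.28 ± 0.97, limma adjusted p = 0.00335).

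Cd4 (chr6:124864692-124888221, minus strand) followed the CD8 genes in part. Over the 18 E19.5 libraries its Pearson r of log2(value + 1) was 0.63 with Cd8a and 0.48 with Cd8b1, whereas its highest means were in BCL11blowID2low and BCL11b+ID2+. Its normalised read counts were 0, 11.3 and 1.45 in DN2, 66.4, 406 and 56.5 in BCL11blowID2low, 196, 61.9 and 131 in BCL11b+ID2+, 33.0, 51.4 and 60.9 in BCL11b+ID2-, 23.4, 29.2 and 8.27 in BCL11b-ID2+, with 19.52, 27.5 and 38.4 in BCL11b-ID2-. All BCL11b+ID2+ libraries were above all BCL11b+ID2- libraries, with a log2 difference of 1.295 ± 0.84 that did not pass (limma adjusted p = 0.422), and 1 BCL11blowID2low library held more than any other. DN2 was the lowest gate, and Cd4 fell there against BCL11b+ID2- (log2 difference -3.94 ± 0.84, limma adjusted p = 0.00207) and against BCL11b-ID2- (log2 difference -3.19 ± 0.84, limma adjusted p = 0.0364), the second call being lost without any 1 of the BCL11b-ID2- libraries or DN2 replicate 1 or 4, in edgeR, with a pseudocount of 8 and with only those groups in the fit, with adjusted p up to 0.196. Cd4 is also transcribed in lymphoid tissue inducer cells and some dendritic cells. The macrophage and dendritic sum (10 genes), with libraries in the order of the Cd4 values, was 368, 106 and 351 in BCL11blowID2low. There the library with the most Cd4 had the smallest sum. It was 969, 453 and 534 in BCL11b+ID2+ and 29.5, 37.5 and 158 in BCL11b+ID2-. In both of those gates the library with the most Cd4 had the largest sum. BCL11b-ID2+ had 1082, 1019.6 and 1463, and the library with the most Cd4 had the smallest. The sum was 954 to 1060 in BCL11b-ID2- and 18.4 to 32.0 in DN2, where the library with the most Cd4 was in the middle. The part of these cells in the Cd4 values was not tested. The lymphoid tissue inducer and ILC3 sum was 0.727 to 112 in DN2, 2056 to 3081 in BCL11blowID2low, 694 to 809.9 in BCL11b+ID2+ and 1103 to 1551 in BCL11b+ID2-, and its part in the Cd4 values was not tested.

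**Figure D4:**
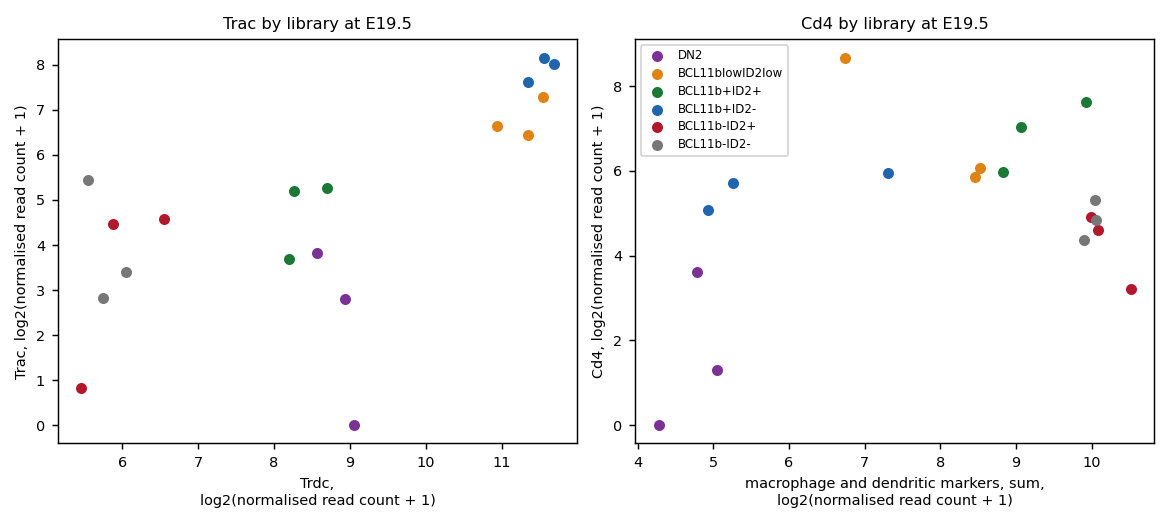
Trac against Trdc, and Cd4 against the summed macrophage and dendritic markers, in the 18 E19.5 libraries, both axes as log2(normalised read count + 1) and 1 point a library. The BCL11b+ID2- and BCL11blowID2low libraries were the highest in both Trac and Trdc, and the BCL11blowID2low library with 406 normalised Cd4 reads had the smallest marker sum of its gate, 106. In BCL11b+ID2+ and BCL11b+ID2- the library with the most Cd4 had the largest marker sum of its gate, 969 and 158.

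Themis (chr10:28668360-28883818, plus strand), a regulator of receptor signalling, was highest in DN2 and, among the DN1 gates, in those with BCL11b. Normalised read counts at E19.5 were 729, 771 and 363 in DN2, 178, 73.8 and 134 in BCL11blowID2low, 137, 169 and 208 in BCL11b+ID2+, 363, 345 and 267 in BCL11b+ID2-, 54.5, 27.6 and 37.8 in BCL11b-ID2+, with 18.3, 65.8 and 19.2 in BCL11b-ID2-. DN2 overlapped BCL11b+ID2-, BCL11b+ID2+ overlapped BCL11blowID2low, and the BCL11b- gates overlapped each other below all of them. Themis was the member that rose with BCL11b in both ID2 states: 9.43-fold higher in BCL11b+ID2- than in BCL11b-ID2- (log2 difference 3.45 ± 0.46, limma adjusted p = 1.01e-05) and 4.29-fold higher in BCL11b+ID2+ than in BCL11b-ID2+ (log2 difference 2.105 ± 0.46, limma adjusted p = 0.00424). It also rose in DN2 against BCL11b-ID2- (log2 difference 4.31 ± 0.46, limma adjusted p = 2.09e-06; means 18.03-fold higher) and in BCL11blowID2low against BCL11b-ID2- (log2 difference 2.04 ± 0.46, limma adjusted p = 0.0031), the last being lost with only those groups in the fit (0.059). The difference between BCL11b+ID2+ and BCL11b+ID2-, -0.93 ± 0.46, did not pass (limma adjusted p = 0.252), nor did its interaction (-1.34 ± 0.64, limma adjusted p = 0.223).

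Satb1 (chr17:51736187-51833290, minus strand) was highest in BCL11b+ID2-, whose libraries stood above all others. It had 1087, 853 and 749 normalised reads in DN2, 837, 799.5 and 703 in BCL11blowID2low, 944, 850.1 and 797 in BCL11b+ID2+, 3025, 1832 and 2091 in BCL11b+ID2-, 587, 944 and 429 in BCL11b-ID2+, with 1075, 966 and 865 in BCL11b-ID2-, and the other 5 gates overlapped their neighbours. Satb1 fell in BCL11b+ID2+ (log2 difference -1.39 ± 0.24, limma adjusted p = 0.000353), DN2 (log2 difference -1.35 ± 0.24, limma adjusted p = 0.000292) and BCL11blowID2low (log2 difference -1.54 ± 0.24, limma adjusted p = 0.000278), each against BCL11b+ID2-. BCL11b+ID2- was 2.39-fold higher than BCL11b-ID2- (log2 difference 1.23 ± 0.24, limma adjusted p = 0.000767). Between the BCL11b- gates the value was -0.64 ± 0.24 and did not pass (limma adjusted p = 0.0709).

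At E15.5, 6 of the 9 members in the table passed the filter (Trbc1, Trbc2, Trbv13-2, Ptcra, Themis and Satb1), and 1 difference of a member passed limma's threshold. The gate of each E15.5 column was assigned from its barcode number alone. Trbv13-2 fell in BCL11b+ID2+ against BCL11b+ID2-, with 0, 1.68 and 0 normalised reads in BCL11b+ID2+ and 534, 380.5 and 334 in BCL11b+ID2- (log2 difference -8.20 ± 1.77, limma adjusted p = 0.0274), and 0.719% of 10289 genes passed in that comparison. The ID2+ gate held 3 reads of it over 3 libraries, which gives a ratio of means of 744 with a 95% counting interval of 254 to 3610. That call was lost without 5 of the 6 libraries compared (adjusted p 0.0649 to 0.106), without the filter (0.0543), in edgeR (0.0785) and with only those groups in the fit (0.286). No member passed in the other comparisons, where the share of all genes passing was 0.467% for BCL11b-ID2+ against BCL11b-ID2-, 0.00972% for BCL11b+ID2- against BCL11b-ID2-, 0.0778% for BCL11b+ID2+ against BCL11b-ID2+, and 0% for DN2 against BCL11b+ID2-, DN2 against BCL11b-ID2- and the interaction. With limma, unadjusted p was under 0.05 for 663, 623 and 662 genes in these last 3, where edgeR called 0 genes in each and DESeq2 532, 474 and 392.

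Trbv13-2 had 936 and 598 normalised reads in DN2 at E15.5, 0.799, 2.34 and 0.630 in BCL11b-ID2+, with 71.8, 103 and 180.1 in BCL11b-ID2-, so the ID2+ gates were near 0 and no ID2- or DN2 library was below 71.8. Ptcra, on the other hand, was highest in BCL11b+ID2- at this stage: 9.57 and 14.7 in DN2, 0.9997, 0.560 and 0 in BCL11b+ID2+, 136, 15.2 and 305 in BCL11b+ID2-, 0, 0 and 0 in BCL11b-ID2+, with 0, 0 and 3.37 in BCL11b-ID2-. No difference in Ptcra between gates passed, the largest being -5.91 ± 1.75 for BCL11b+ID2+ against BCL11b+ID2- (limma adjusted p = 0.115). Themis had 2740.3 and 3961 in DN2, 201, 323 and 2874 in BCL11b+ID2+, 3343, 2492 and 3128 in BCL11b+ID2-, 63.9, 107 and 330.4 in BCL11b-ID2+, with 7.11, 65.3 and 127 in BCL11b-ID2-. DN2 and BCL11b+ID2- were high for Themis in every library, and BCL11b+ID2+ was divided, with 1 library at their level. That library, given last of its gate, had an NK and ILC1 marker sum of 4036, against 229.9 and 713 in the others. Its macrophage and dendritic sum was 625, against 20.0 and 194, and its ILC2 sum 7541, against 10493.5 and 10782. It had 8277 genes detected, against 9024 and 11131. Its gamma and delta constant gene sum was 63336, against 17427 and 8036, whereas Trdc alone went the other way, at 36.0 against 556 and 62.7. The part of these cells or of library quality in the Themis values was not tested.

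Trbc1 at E15.5 had 1572 and 3529 normalised reads in DN2, 2635, 1145 and 631 in BCL11b+ID2+, 424, 332 and 986 in BCL11b+ID2-, 11.99, 1155 and 481 in BCL11b-ID2+, with 1631, 1159.8 and 801 in BCL11b-ID2-. Trbc2 had 513 and 952 in DN2, 614, 246 and 1959.8 in BCL11b+ID2+, 648, 1951 and 4231 in BCL11b+ID2-, 673, 154 and 477 in BCL11b-ID2+, with 1743, 549 and 511 in BCL11b-ID2-. For both genes the libraries of each gate overlapped those of its neighbours in the order of means. Satb1 had 1128 and 1353 in DN2, 199.9, 241 and 823 in BCL11b+ID2+, 1735, 1528 and 1323 in BCL11b+ID2-, 974, 28.1 and 1289 in BCL11b-ID2+, with 1123, 2259 and 1666 in BCL11b-ID2-, with BCL11b+ID2+ below BCL11b+ID2- in every library.

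The alpha-chain and co-receptor genes were barely read at E15.5. Trac had reads in 3 of 14 libraries (0, 38.0 and 0 in BCL11b+ID2- and 0, 12.9 and 5.04 in BCL11b-ID2+, and 0 in all others), Cd4 in 1 (a BCL11b-ID2- library, 4.97) and Cd8b1 in 1 (a BCL11b+ID2- library, 25.3). None of these 3 passed the filter. All were read in every gate at E19.5. Depth outside mitochondrial genes was between 1762514 and 5161153 reads per library at E19.5, against 3393061 to 7808245 at E15.5. Genes detected per library numbered 14387 to 18879 at E19.5, against 8277 to 12954 at E15.5, so stage and library quality cannot be told apart.

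**Figure D5:**
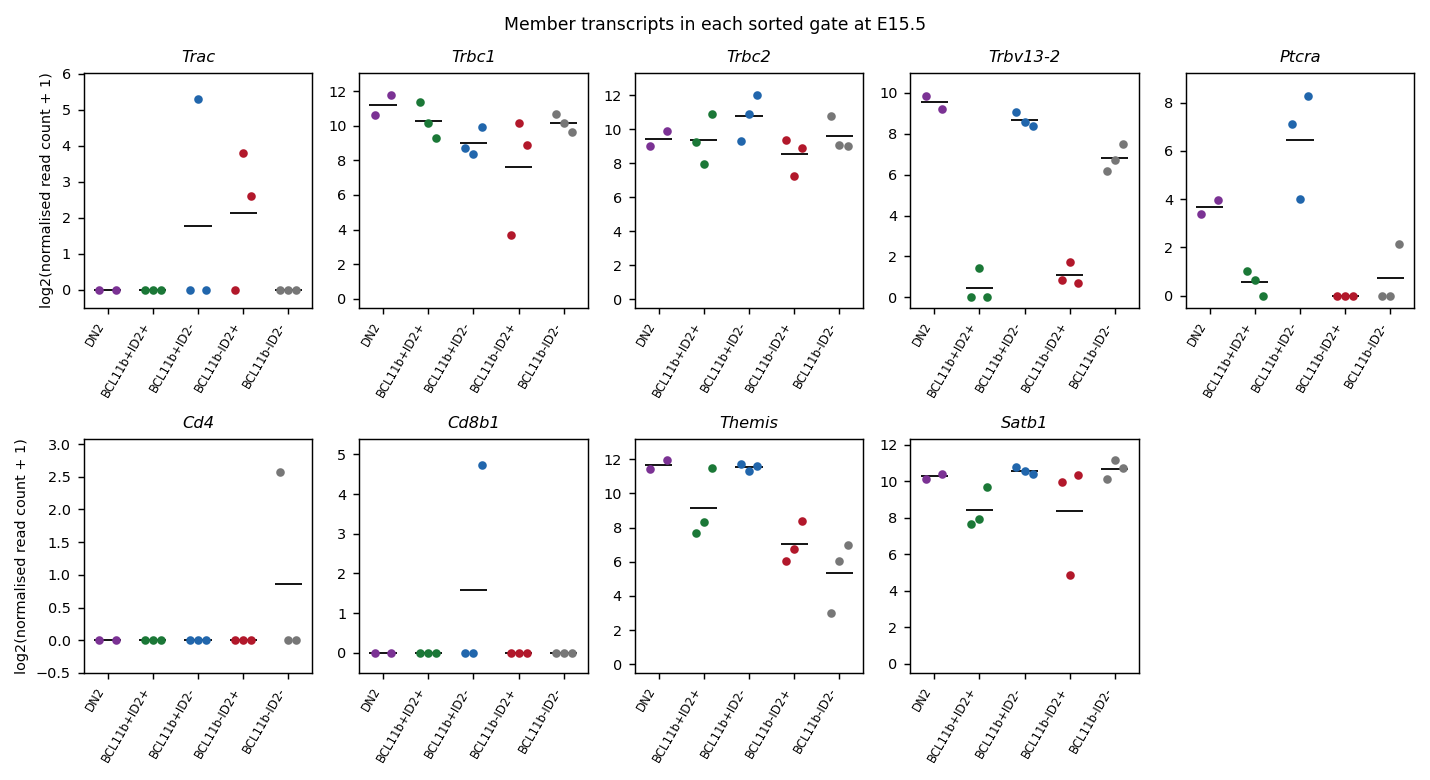
Normalised read counts, as log2(value + 1), of the 9 members analysed at E15.5, 1 panel a gene, with a point for each library and a line at each gate's mean of the log values (3 libraries a gate, 2 for DN2). Trbv13-2 was at most 2.34 in the ID2+ libraries and at least 71.8 in all others.

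Set side by side without a test, the direction of a difference was the same at both stages for 9 pairs of a member and a comparison in which the libraries of the groups did not overlap at either stage, and opposite for 2, both in DN2 against BCL11b+ID2-. The same count was not made over all genes, so these counts support nothing. Trbc1 averaged 1194 in DN2 and 1792 in BCL11b+ID2- at E19.5, and 2550.5 in DN2 and 580.5 in BCL11b+ID2- at E15.5. Ptcra averaged 62.6 in DN2 and 3.20 in BCL11b+ID2- at E19.5, and 12.1 in DN2 and 152 in BCL11b+ID2- at E15.5. Neither E15.5 difference passed within its stage (limma adjusted p = 0.887 for Trbc1 and 0.914 for Ptcra). Trbc2 went the other way at E15.5, at 733 in DN2 and 2277 in BCL11b+ID2-, with overlapping libraries. Summed, Trbc1 and Trbc2 gave an E15.5 log2 difference of 0.39 ± 0.78 (limma adjusted p = 0.993). For Ptcra the nearest E15.5 libraries were 14.7 in DN2 and 15.2 in BCL11b+ID2-. By mean, the gate with the most Ptcra was DN2 at E19.5 and BCL11b+ID2- at E15.5.

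Other genes of the pathway were read from lists. The CD3 chains and the kinases and adaptors next to the receptor (9 genes, all tested at E19.5) rose together in BCL11b+ID2- against BCL11b-ID2-: 8 of 9 rose and none fell, with a median log2 difference of 4.69 against -0.05 over all genes. Cd247, the zeta chain, averaged 967 ± 166 in BCL11b+ID2- and 9.38 ± 6.87 in BCL11b-ID2-, and Cd3e 4395 ± 472 and 115 ± 47.9 in the same gates (SD, n = 3 each). BCL11blowID2low also had 8 of 9 higher than BCL11b-ID2- (median 4.25 against -0.14), none that passed against BCL11b+ID2-, and 3 higher than BCL11b+ID2+. The ID2+ gate had 5 that fell among BCL11b+ cells (median -1.26) and 5 that rose among BCL11b- cells (median 1.98), where Cd3g averaged 1349 ± 162 in BCL11b-ID2+, with 22.1 ± 14.6 in BCL11b-ID2-. The interaction passed for 8 of 9, all negative, while the NK and ILC1 sum was 13262 to 14338 in BCL11b-ID2+, against 44.8 to 177 in BCL11b-ID2-, and its part in the CD3 values was not tested. DN2 against BCL11b+ID2- had 7 that fell and 1 that rose, Lck, with Zap70 averaging 2.31 ± 0.750 in DN2 and 382 ± 41.2 in BCL11b+ID2-, while DN2 against BCL11b-ID2- had 5 that rose, and BCL11b+ID2+ against BCL11b-ID2+ had 2 in each direction.

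Of the recombination genes Rag1 and Rag2, which cut receptor segments, and Dntt, which adds bases where they are joined, 2 rose in DN2 against BCL11b+ID2- at E19.5. Rag2 averaged 488 ± 92.0 in DN2 and 28.7 ± 15.9 in BCL11b+ID2-, and Rag1 744 ± 385 in DN2 and 215 ± 31.2 in BCL11b+ID2- (limma adjusted p = 0.000421 and 0.00414, SD, n = 3 each). DN2 against BCL11b-ID2- had 1 that rose, Rag1, and Rag2 was the 1 that fell in BCL11b+ID2-, BCL11b-ID2+ and BCL11blowID2low, each against BCL11b-ID2-. The remaining E19.5 gate comparisons had none, and 1 passed in the interaction. At E15.5 both genes tested, Rag1 and Rag2, fell in BCL11b+ID2+ against BCL11b+ID2-, where Rag1 averaged 157 ± 239.9 in BCL11b+ID2+ and 7239 ± 3489 in BCL11b+ID2-, and Rag2 also fell in BCL11b-ID2+ against BCL11b-ID2-.

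Among 11 later thymocyte surface genes, 6 fell in BCL11b+ID2+ against BCL11b+ID2- at E19.5 (median -2.31, against 0.00465 over all genes), 6 fell in DN2 against BCL11b+ID2- (median -1.93), and 4 rose in BCL11b+ID2- against BCL11b-ID2- (median 1.53). Ccr9, a chemokine receptor gene, averaged 42.0 ± 10.2 in DN2, 2534 ± 111 in BCL11blowID2low, 1859 ± 587 in BCL11b+ID2+, 8967 ± 1805 in BCL11b+ID2-, 62.6 ± 41.1 in BCL11b-ID2+, with 325 ± 58.6 in BCL11b-ID2- (SD, n = 3 each), which is the order of the gates for Trac. BCL11blowID2low had 5 that rose and 1 that fell against BCL11b-ID2-, 3 that fell against BCL11b+ID2- and 3 that rose against BCL11b+ID2+. In BCL11b-ID2+ against BCL11b-ID2-, 1 rose and 5 fell, in BCL11b+ID2+ against BCL11b-ID2+ 3 rose and 1 fell, in DN2 against BCL11b-ID2- 1 moved each way, and 2 had a negative interaction. At E15.5, 7 were tested and 1 passed, Arpp21, which averaged 85.4 ± 135 in BCL11b+ID2+ and 3523 ± 1092 in BCL11b+ID2-.

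Of 16 transcriptional regulators of T-cell development, 10 fell and 1 rose in BCL11b+ID2+ against BCL11b+ID2- at E19.5, and 9 rose and 1 fell in BCL11b+ID2- against BCL11b-ID2-. Tcf7, which encodes TCF1, averaged 808 ± 179 in BCL11b+ID2+ and 3779 ± 424 in BCL11b+ID2-. Lef1, its relative, averaged 37.3 ± 8.11 in DN2, 221 ± 30.6 in BCL11b+ID2+, 1194 ± 175 in BCL11b+ID2-, with 27.4 ± 21.1 in BCL11b-ID2- (SD, n = 3 each). DN2 against BCL11b+ID2- had 2 that rose and 9 that fell, DN2 against BCL11b-ID2- 4 and 1, BCL11b-ID2+ against BCL11b-ID2- 5 and 6, BCL11b+ID2+ against BCL11b-ID2+ 5 and 2, and the interaction was positive for 1 and negative for 8. For BCL11blowID2low the counts were 6 rising and 4 falling against BCL11b-ID2-, 1 and 7 against BCL11b+ID2-, and 1 each way against BCL11b+ID2+. The only regulator that rose in BCL11blowID2low against BCL11b+ID2- was Zbtb7b (limma adjusted p = 0.00223), which averaged 0.222 ± 0.384 in DN2, 132 ± 44.0 in BCL11blowID2low, 64.4 ± 55.3 in BCL11b+ID2+, 7.55 ± 6.0 in BCL11b+ID2-, 162 ± 115 in BCL11b-ID2+, with 13.9 ± 8.79 in BCL11b-ID2- (SD, n = 3 each), so that its mean was highest in BCL11b-ID2+. At E15.5 Notch3 and Myb fell in BCL11b+ID2+ against BCL11b+ID2-, and Ets1 rose in BCL11b-ID2+ and in BCL11b+ID2-, each against BCL11b-ID2-; no other regulator passed.

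All 4 gamma and delta constant genes rose in BCL11b+ID2- and in BCL11blowID2low, each against BCL11b-ID2-. In BCL11b+ID2+ against BCL11b+ID2-, 2 fell, in BCL11b+ID2+ against BCL11b-ID2+ 3 rose, in BCL11b-ID2+ against BCL11b-ID2- 1 rose and 2 fell, in DN2 against BCL11b+ID2- 1 rose and 2 fell, and in DN2 against BCL11b-ID2- 3 rose. BCL11blowID2low had none that passed against BCL11b+ID2- and 2 that rose against BCL11b+ID2+, and the interaction was positive for 1 and negative for 3. At E15.5 Tcrg-C4 averaged 5936 ± 2727 in BCL11b+ID2+ and 166 ± 209 in BCL11b+ID2- (limma adjusted p = 0.0341), a rise in the comparison in which Trbv13-2 fell. Tcrg-C4 also rose and Tcrg-C2 fell in BCL11b-ID2+ against BCL11b-ID2-, and Tcrg-C1 and Tcrg-C2 rose in BCL11b+ID2+ against BCL11b-ID2+. At E15.5 the CD3 list had no gene that passed in any of the 7 comparisons (8 of 9 tested), and of the 6 receptor segments tested Trbv13-2 was the 1 that passed.

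The genes most like each member were found by Pearson r of log2(value + 1) over the 18 E19.5 libraries, which share gates, so an r mostly reflects differences between gates and carries no test. For Trac they were Tox2 (0.85), Ccr9 (0.84) and Nav2 (0.83). For Cd8a they were St6gal1 (0.95), Id3 (0.94) and Sla (0.93), and for Cd8b1 Grap (0.85), Phf20l1 (0.81) and Susd6 (0.80). Trbc1 was most like Angptl2 (0.89), Mpp4 (0.89) and Dck (0.89) and Trbc2 most like Mpp1 (0.93), Dck (0.91) and Dmwd (0.91), with Dck, a nucleoside kinase, in both. Among the genes most like Trbv13-2 were Marcksl1 (0.92) and Tmem108 (0.91). Among those most like Ptcra were Zfp207 (0.83) and Prim1 (0.78), on few reads. For Cd4 the genes were Psap (0.90), Nr1d2 (0.85) and Cd84 (0.84), for Themis Atp8a1 (0.87), Fam169b (0.87) and Rag1 (0.82), the last being the recombinase gene, and for Satb1 Nckap5l (0.91), Carmil2 (0.89) and Zbtb8b (0.88). Of the genes named, none other than Dck stood in the lists of more than 1 member.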

How the data were processed

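RNA-seq values were taken from 2 deposited tables, 18 libraries in the E19.5 table and 14 in the E15.5 table. The submitters' processing notes name Trim Galore 0.50, STAR 2.6.0a, the GRCm38 build and DESeq2 1.18.1, without parameters. The values are a signal, counts divided by size factors, as the authors deposited them, and whole reads were recovered from 100% of the values within 0.01 of a read. The use of strand and of reads that fit several genes is not stated. E15.5 columns are headed by numbers and were matched to samples by the barcode number in the samples' descriptions. No other label in the table checks the match, so every E15.5 gate was assigned from it. Bcl11b and Id2 values of the + and - gates at E15.5, described above, followed the assigned gates apart from an overlap in Id2.

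A gene was tested at a stage where 3 or more libraries reached 10, which left 13840 genes at E19.5 and 10289 at E15.5. Values were taken as log2(value + 1), on which the fold of a low gene is understated, and all libraries of a stage entered 1 limma fit (limma 3.58.1, R 4.3.3; trend and robust options on), with p-values adjusted by Benjamini and Hochberg over all genes tested and a threshold of 0.05. The alternatives were a pseudocount of 8, no filter, TMM scaling, edgeR 4.0.16 and DESeq2 1.42.0 on the recovered reads, a fit of only the groups compared, the replicate number as a block and each library left out. The sum of Trbc1 and Trbc2 was added after seeing the data.

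The fit was tested on simulated data. At the first spread tried, fewer known changes passed the threshold than had been asked for, so a lower spread was added, at which they were recovered but false calls passed the nominal share at E19.5. At the spread estimated from these libraries few or no known changes passed, so a difference that did not pass does not show that groups were alike.

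The members and gene lists were chosen with earlier results of these data known. All 10 members are described. Of each list and comparison, at most 4 called genes could be named, by size of difference, if the groups' libraries did not overlap and the higher group averaged 100 or more, and any other list gene was named after its values were seen. The 3 genes most like each member leave out members, receptor genes and predicted genes, and some are not reported here. Coordinates and exon lengths are from GENCODE on GRCm38.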

Additional observations from a re-analysis of the deposited data

Results flagged for a closer look

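The change of Cd8a with ID2 differed between BCL11b+ and BCL11b- cells at E19.5. The log2 difference of the 2 ID2 effects was -3.28, with adjusted p = 0.00931 in the limma interaction test. Cd8a was lower in all ID2+ libraries of the BCL11b+ cells and higher in all ID2+ libraries of the BCL11b- cells. It alone of the 10 members passed this test, near the 9.28% share of all genes. The ID2 difference was -2.17 ± 0.56 in BCL11b+ cells (limma adjusted p = 0.0135), a call lost without BCL11b+ID2+ replicate 2 or BCL11b+ID2- replicate 4. In BCL11b- cells it was 1.11 ± 0.56 and did not pass (limma adjusted p = 0.198). The NK and ILC1 sum was 13262 to 14338 in BCL11b-ID2+, and its part in Cd8a was not tested.

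In DN2 against BCL11b+ID2-, 2 members had every library of the first group on one side of the second at E19.5 and on the other side at E15.5. Trbc1 averaged 1194 in DN2 and 1792 in BCL11b+ID2- at E19.5, and 2550.5 in DN2 and 580.5 in BCL11b+ID2- at E15.5. Ptcra averaged 62.6 in DN2 and 3.20 in BCL11b+ID2- at E19.5, and 12.1 in DN2 and 152 in BCL11b+ID2- at E15.5. Within E15.5 neither difference passed (limma adjusted p = 0.887 for Trbc1 and 0.914 for Ptcra). For Ptcra the nearest E15.5 libraries were 14.7 in DN2 and 15.2 in BCL11b+ID2-, on 12 and 14 reads. The differences between stages were not tested, because the stages were normalised separately, and the split of reads between Trbc1 and Trbc2 is uncertain. At E15.5 Trbc2 averaged 733 in DN2 and 2277 in BCL11b+ID2-, the other way from Trbc1, with overlapping libraries. With Trbc1 and Trbc2 summed, the log2 difference was 0.39 ± 0.78 at E15.5 and -0.44 ± 0.15 at E19.5 (limma adjusted p = 0.993 and 0.0439). No gate had the 4 libraries that a check for single outlying libraries needs.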

How the results depend on the processing

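Of 38 called differences of members, 37 of them at E19.5, none changed sign under any alternative run, 25 stayed past the threshold in every one, and 11 lost it in at least 1 fit that left out a library. DESeq2, TMM scaling, a pseudocount of 8 and the replicate block each lost 1 call, no filter 5, and edgeR and the fit of only the groups compared 7 each. In BCL11b+ID2+ against BCL11b+ID2- at E15.5 the count of members was 1, against 0 with no filter, in edgeR and in the fit of only the groups compared and 2 in DESeq2, and DESeq2 gave 1 in place of 0 in BCL11b-ID2+ against BCL11b-ID2-. At E19.5 the count in BCL11b+ID2+ against BCL11b-ID2+ was 1, against 2 with a pseudocount of 8, the replicate block or only the groups compared and 3 in DESeq2. The interaction count was 1, against 2 with a pseudocount of 8 or the replicate block. DN2 against BCL11b-ID2- had 3, against 1 in edgeR and 5 in DESeq2, and BCL11blowID2low against BCL11b+ID2+ had 2, against 0 with only the groups compared. Leaving out 1 library gave 0 to 1 members in BCL11b+ID2+ against BCL11b+ID2- at E15.5. At E19.5 it gave 1 to 3 in DN2 against BCL11b-ID2-, 1 to 2 in BCL11blowID2low against BCL11b+ID2+ and 1 to 2 in the interaction. The cause of these changes was not tested.

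Over all genes at E15.5, limma called between 0 and 74 genes in a comparison and DESeq2 between 335 and 1089. In the order of the 7 comparisons given above for that stage, DESeq2 called 1089, 414, 335, 634, 532, 474 and 392. BCL11b+ID2+ against BCL11b+ID2- had 74, against 21 with no filter and 2 with only the groups compared, and BCL11b-ID2+ against BCL11b-ID2- had 48, against 28 with no filter. BCL11b+ID2+ against BCL11b-ID2+ had 8, against 19 with a pseudocount of 8, 5 with no filter and 0 with only the groups compared. At E19.5 the fit of only the groups compared called 298 genes in place of 957 in BCL11blowID2low against BCL11b+ID2- and 341 in place of 613 in BCL11blowID2low against BCL11b+ID2+.

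Libraries with the same replicate number shared little variation. Their deviations correlated at -0.046 to 0.039 over 26 pairs at E15.5. At E19.5 they correlated at 0.0020 to 0.129 over 45 pairs, where 1 pair exceeded 0.1. Still, 19 of the E15.5 pairs and 40 of the E19.5 pairs correlated best with their own number. A weak link between same-numbered libraries therefore remains, which the main fit did not use. With the replicate block the rise of Trac in BCL11blowID2low against BCL11b-ID2- had adjusted p = 0.0586. Few reads limit Ptcra at E19.5 and Trac, Cd4 and Cd8b1 at E15.5.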
